A study of Mus musculus with 8 samples.

Results

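The genes described here handle vitamin A (retinoids) in mouse liver: retinol saturase (Retsat), a retinol carrier (Rbp4), the esterifying enzyme Lrat, 3 oxidoreductases of retinol and retinal (Dhrs3, Rdh7 and Rdh10), a retinal dehydrogenase (Aldh1a1), the retinoic acid hydroxylase Cyp26a1 and a retinoic acid receptor (Rarb). They were chosen by gene symbol, and all 9 had a row among the 22923 symbols of the deposited files. All 9 reached 1 RPKM (a read count divided by the length of the transcript and the size of the library) in at least 1 group, and none was listed at 0 in any group. RNA was sequenced from livers of C57BL/6 mice in 4 groups: Xbp1-/- on a high-fat diet, Xbp1flox on a high-fat diet, Xbp1-/- on chow and Xbp1flox on chow. The knockout (KO) is restricted to the liver, per the series title, and removes Xbp1, which encodes a transcription factor that drives part of the unfolded protein response. The high-fat diet was combined with a high-fructose corn syrup equivalent, and both diets were given for 4 weeks. Each group held 4 mice, pooled into 2 libraries. The files give 1 value per gene and group, so differences cannot be checked between replicates and carry no p-value, SD or SE. The sources used here give neither the Cre line nor the sex or age of the mice.

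Vitamin A reaches the liver as retinyl esters. Hepatocytes pass retinol to stellate cells, where Lrat esterifies it for storage, and release it into blood bound to Rbp4. Retinol is oxidised to retinal in a reversible step and retinal to retinoic acid in an irreversible step. Retinoic acid binds receptors of the RAR family, which pair with RXR receptors on direct repeats in DNA, and enzymes of the Cyp26 family clear it. Retsat, an enzyme of the endoplasmic reticulum membrane, saturates a double bond of retinol to give dihydroretinol.

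The 3 promoters printed here belong to the member that differed most between genotypes (Retsat), the member that differed most between diets (Cyp26a1) and the receptor gene (Rarb). Each spans 250 bases before to 50 after a RefSeq transcript start on GRCm38.p6, the assembly of the mm10 build named in the submitters' processing notes, and is written 5′ to 3′ on the gene's strand. Capitals mark matches to a direct repeat with a spacing of 5, the kind bound by RAR and RXR. It was searched on both strands in 4 forms (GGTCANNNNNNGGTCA, GGTCANNNNNNGTTCA, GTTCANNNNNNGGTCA and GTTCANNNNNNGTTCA).
Retsat, chr6:72598352-72598651, plus strand: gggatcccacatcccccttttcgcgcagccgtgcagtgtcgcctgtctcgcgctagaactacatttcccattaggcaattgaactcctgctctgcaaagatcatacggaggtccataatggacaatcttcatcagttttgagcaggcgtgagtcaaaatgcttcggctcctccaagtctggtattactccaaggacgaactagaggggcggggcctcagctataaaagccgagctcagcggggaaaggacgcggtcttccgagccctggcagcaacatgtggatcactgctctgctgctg
Cyp26a1, chr19:37697558-37697857, plus strand: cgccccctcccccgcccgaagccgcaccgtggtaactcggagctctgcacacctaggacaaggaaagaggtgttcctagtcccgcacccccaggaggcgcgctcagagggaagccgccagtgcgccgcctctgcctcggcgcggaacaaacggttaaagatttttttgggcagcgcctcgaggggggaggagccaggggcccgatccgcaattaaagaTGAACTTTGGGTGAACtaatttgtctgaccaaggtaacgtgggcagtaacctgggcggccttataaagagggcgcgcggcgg
Rarb, chr14:16575427-16575726, minus strand: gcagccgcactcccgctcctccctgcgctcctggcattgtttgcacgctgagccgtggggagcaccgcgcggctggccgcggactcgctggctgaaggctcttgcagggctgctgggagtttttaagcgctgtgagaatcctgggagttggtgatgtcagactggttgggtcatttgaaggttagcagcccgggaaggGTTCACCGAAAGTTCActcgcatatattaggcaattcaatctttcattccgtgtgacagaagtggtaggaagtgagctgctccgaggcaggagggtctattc

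The direct repeat occurred in 81 of 32851 promoter windows of the same length (0.247%), and 2 of the 13 windows of the members held it. In Cyp26a1 it ran from 32 to 17 bases before the start, on the strand opposite to the gene. In Rarb it ran from 52 to 37 bases before the start, on the gene's own strand. Both matches had the form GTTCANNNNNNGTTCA, which 25 windows held (0.0761%). Repeats with a spacing of 1 (GGTCANNGGTCA and the 3 forms with GTTCA in either or both places) and of 2 (GGTCANNNGGTCA and the like) had no match in the members' windows, against 0.402% and 0.399% of all windows. The elements known for the unfolded protein response, ERSE (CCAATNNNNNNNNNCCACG, in 0.119% of all windows), ERSE-II (ATTGG and CCACG with 1 base between, 0.0365%) and the core of the UPRE (TGACGTGG, 0.676%), had no match in them either, Retsat included. These matches describe letters in the windows and not binding. RefSeq windows were found for 8 members, and Rdh10 was not matched.

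The levels of the members spanned more than 3 orders of magnitude, and their order was nearly the same in every group. Since RPKM is scaled by transcript length, levels can be set side by side between genes. Rbp4 ranked highest among the 9 in all 4 groups, followed by Aldh1a1 and Rdh7, and Lrat and Rarb ranked lowest. Rbp4 was also the gene of rank 24 in KO high fat, 19 in flox high fat, 22 in KO chow and 22 in flox chow among all 22923 symbols. Retsat was the fourth of the 9 in both flox groups, the fifth in KO high fat and the sixth in KO chow. The highest group was less than 2 times the lowest for 7 of the 9 genes, with Retsat (9.73 times) and Cyp26a1 (4.86 times) the exceptions.

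**Figure D1:**
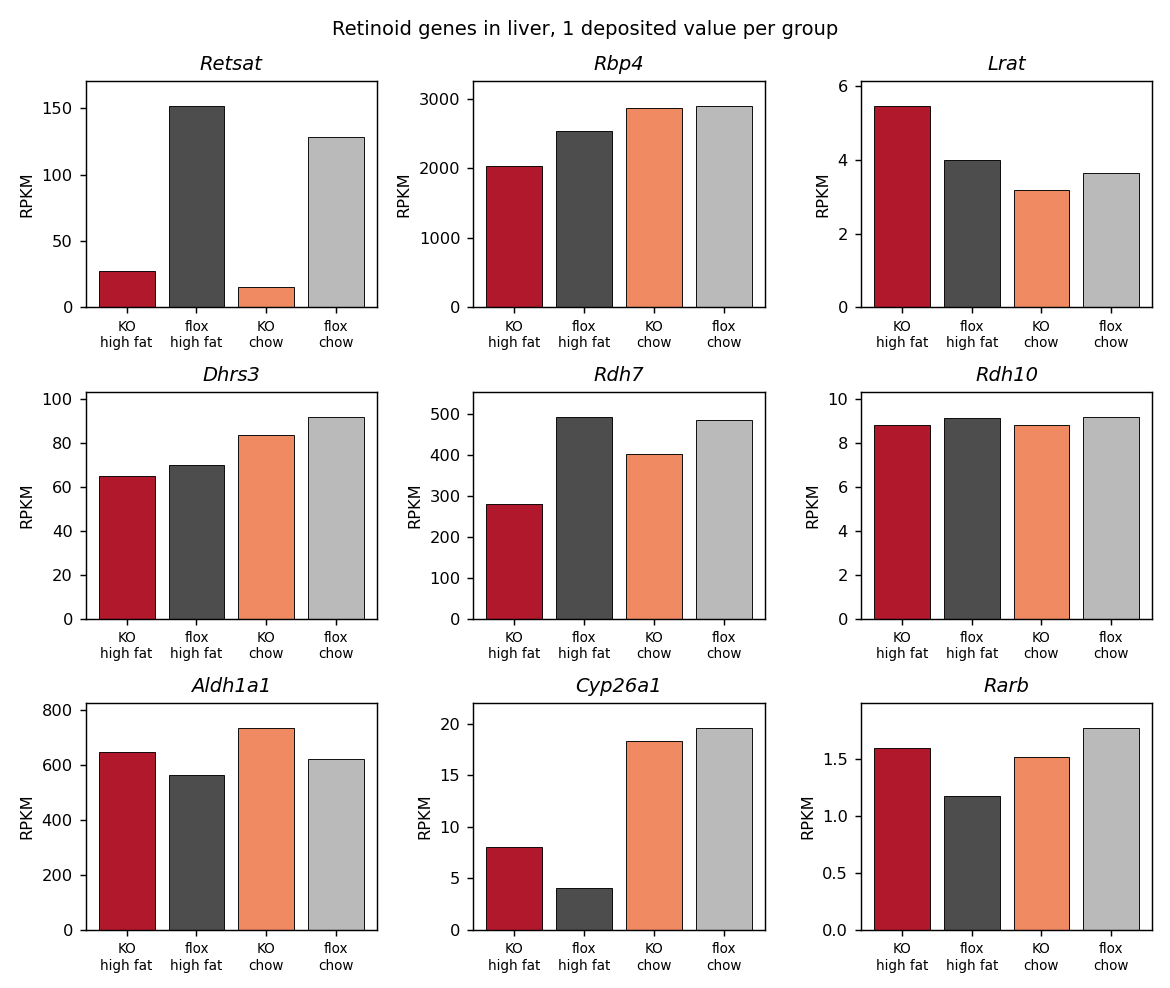
RPKM of the 9 retinoid genes (y axis, linear, from 0) in KO high fat, flox high fat, KO chow and flox chow livers (x axis), 1 deposited value per bar. Retsat is low in both KO groups, Cyp26a1 is low in both high-fat groups, and the other 7 genes differ by less than 2 times between their highest and lowest bars.

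A gene is said below to have risen or fallen when its log2 change, log2((a + 1)/(b + 1)) of RPKM with a pseudocount of 1 RPKM, was at least 1 in size. On chow, KO against flox, 1 of the 9 members fell and 0 rose, while 1.37% of the 10322 genes compared fell and 0.252% rose. On the high-fat diet 1 of the 9 fell and 0 rose, against 1.86% and 1.07% of 10327 genes. The member was Retsat both times. With the high-fat diet against chow, 1 of the 9 fell and 0 rose in KO livers (0.794% and 0.668% of 10328 genes) and in flox livers (0.426% and 0.213% of 10322 genes), and that member was Cyp26a1. In either direction, 1.46% of all genes changed with the diet in KO livers and 0.639% in flox livers. For the difference of the KO changes, the change on the high-fat diet minus that on chow, 0 of the 9 members reached 1 in size, against 1.23% of 10319 genes. The median log2 change of the 9 was -0.13 for KO against flox on chow, where all genes had -0.02, and -0.05 on the high-fat diet, where all genes had -0.13. The targeted gene, Xbp1, read over its whole transcript, was at 34.1 RPKM in KO and 90.7 RPKM in flox livers on the high-fat diet, and at 44.2 RPKM in KO and 112 RPKM in flox livers on chow. The sum of all RPKM differed between groups, with 367414 in KO high fat the lowest and 513694 in flox chow the highest. Scaling the groups to a median log2 ratio of 0 over genes of at least 10 RPKM in all 4 therefore moved the median change of all genes compared up by 0.23 in both comparisons that hold KO high fat (KO against flox on the high-fat diet, and high fat against chow in KO), and rescaling without the 50 most abundant genes by 0.25 and 0.24. Under these rescalings the split of all genes on the high-fat diet, KO against flox, was 185 rising and 93 falling or 192 and 90, in place of 111 and 192. For high fat against chow in KO it was 131 and 47 or 133 and 47, in place of 69 and 82. For high fat against chow in flox it was 29 and 36 or 31 and 35, in place of 22 and 44.

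**Figure D2:**
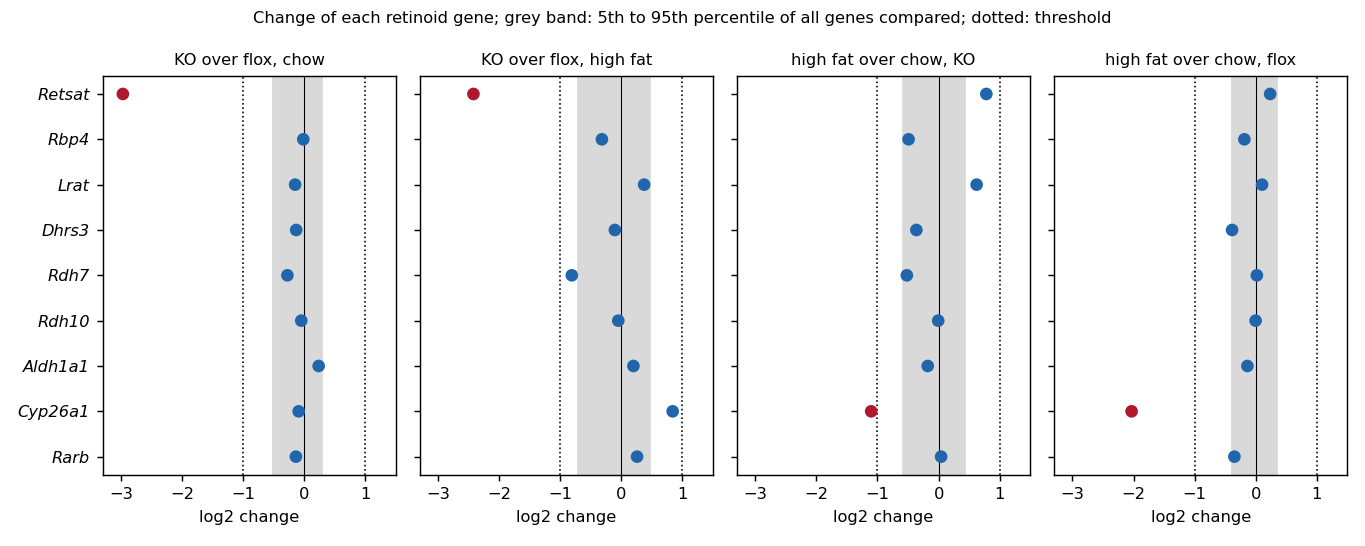
Log2 change (x axis) of each of the 9 retinoid genes (y axis) in KO over flox on chow and on the high-fat diet, and in high fat over chow in KO and in flox livers. The grey band spans the 5th to 95th percentile of all genes compared, dotted lines mark the threshold of 1, and red points (Retsat at -2.97 and -2.42, Cyp26a1 at -1.10 and -2.03) are past it.

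Retsat (chromosome 6, 72598602 to 72607488) carried the difference between genotypes. On the high-fat diet it was at 27.5 RPKM in KO livers and 152 RPKM in flox livers, and on chow at 15.6 RPKM in KO livers and 129 RPKM in flox livers. Both KO values lay below both flox values. The KO level was 18.1% of flox on the high-fat diet (log2 change -2.42) and 12.1% of flox on chow (log2 change -2.97). These were the falls of rank 8 among 10327 genes and of rank 6 among 10322 genes. Rescaling left it between -2.14 and -2.12 on the high-fat diet and between -2.88 and -2.82 on chow. High fat against chow, Retsat was at 176% of the chow level in KO livers (log2 change 0.78) and 118% in flox livers (log2 change 0.24), neither past the threshold as deposited. Under both rescalings the change in KO livers was 1.06, past the threshold. Hepatocyte markers were lower in KO livers too. The 12 hepatocyte markers, of which Alb was listed at 0 in all 4 groups, summed to 11851 RPKM in KO and 21829 RPKM in flox livers on the high-fat diet and to 16625 RPKM in KO and 24748 RPKM in flox livers on chow. As deposited, of the 11 that were compared, 3 fell on the high-fat diet (Apoa1, Cps1 and F2) and 1 (F2) on chow, KO against flox. Of all genes compared, 1.86% fell on the high-fat diet and 1.37% on chow. These marker calls were not repeated under the rescalings. The log2 factors of the rescalings were 0.24 and 0.27 in KO high fat and -0.05 and -0.04 in flox high fat. They make the falls on the high-fat diet smaller, so the 3 marker calls there may not stay past the threshold. The part of a changed hepatocyte content in the levels of Retsat, Rdh7 and Rbp4 was not tested, and in whole liver fewer cells of a type and less RNA per cell cannot be told apart.

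None of the genes next to Retsat on chromosome 6 fell between genotypes. Of the 4 other genes within 100000 bases that reached 1 RPKM, Elmod3, which lies just before Retsat, was at 5.85 RPKM in KO and 6.05 RPKM in flox livers on chow (log2 change -0.04). Tgoln1, which encodes a protein of the trans-Golgi network and lies just after it, was at 21.5 RPKM in KO and 22.7 RPKM in flox livers on chow (log2 change -0.07) and at 24.4 RPKM in KO and 35.3 RPKM in flox livers on the high-fat diet (log2 change -0.51). The transcription factor gene Tcf7l1 had log2 changes of -0.17 on chow and -0.05 on the high-fat diet. The actin-capping gene Capg rose on the high-fat diet, with 3.24 RPKM in KO and 0.902 RPKM in flox livers (log2 change 1.16). Words of 50 bases shared with the transcript of another gene, on the opposite strand, made up 7.52% of the Retsat transcript, so most of its length is its own.

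The 5 genes most like Retsat were Ces1d, Ces1g, Dgat2, Ces1c and Hc. Likeness was the distance between centred log2(RPKM + 1) profiles over the 4 groups, among 5630 other genes with a mean of at least 5 RPKM and no 0, and distances ran from 0.34 for Ces1d to 0.51 for Hc. Ces1d, a carboxylesterase gene, was at 42.6 RPKM in KO and 299 RPKM in flox livers on the high-fat diet and at 30.3 RPKM in KO and 271 RPKM in flox livers on chow. Ces1g was at 15.3 RPKM in KO and 70.3 RPKM in flox livers on the high-fat diet and at 7.56 RPKM in KO and 84.1 RPKM in flox livers on chow. Reads of the near-identical Ces1 genes may be split between copies. Dgat2, whose product completes triglyceride synthesis, was at 46.8 RPKM in KO and 238 RPKM in flox livers on the high-fat diet and at 37.3 RPKM in KO and 239 RPKM in flox livers on chow. Hc, the gene of complement C5, had log2 changes of -2.36 on chow and -2.15 on the high-fat diet, KO against flox. As deposited, the change of these 5 genes with the high-fat diet in KO livers ran from 0.32 in Dgat2 to 0.93 in Ces1g, and their likeness to Retsat over the same 4 values is how they were chosen.

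**Figure D3:**
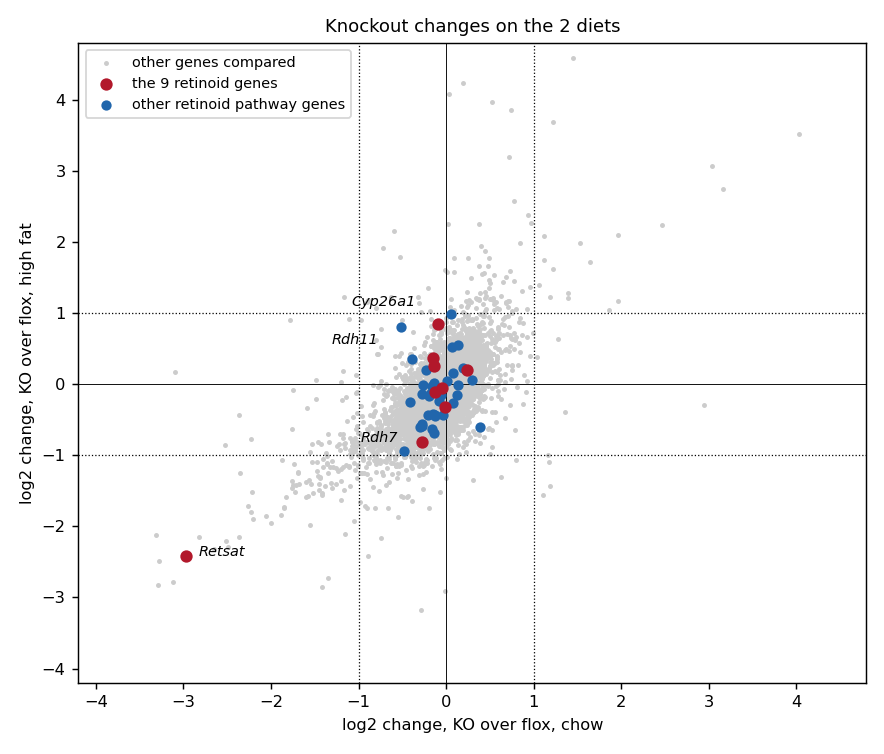
Log2 change of KO over flox on chow (x axis) and on the high-fat diet (y axis) for the 9 retinoid genes (red), the other retinoid pathway genes that passed 1 RPKM (blue) and other genes (grey), with dotted lines at the threshold of 1. Retsat lies far down the lower left at -2.97 and -2.42 and 0 blue points are past the threshold.

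Among carriers, Rbp4 (chromosome 19, 38116620 to 38125321), the plasma carrier of retinol that hepatocytes secrete, was at 2037 RPKM in KO and 2541 RPKM in flox livers on the high-fat diet, and at 2863 RPKM in KO and 2892 RPKM in flox livers on chow. On chow the KO level was 99.0% of flox (log2 change -0.01, or 0.07 and 0.13 rescaled), and KO high fat was the lowest of the 4 groups. The KO change on the high-fat diet was -0.32 on the log2 scale, which rescaling moved to between -0.03 and -0.01. Ttr, transthyretin, the partner that Rbp4 binds in plasma, was at 2904 RPKM in KO and 4302 RPKM in flox livers on the high-fat diet (log2 change -0.57). On chow it was at 4418 RPKM in KO and 5347 RPKM in flox livers (log2 change -0.28). Stra6l, listed in the files under its older name 1300002K09Rik and known as a liver receptor for Rbp4 in mouse, had log2 changes of -0.60 on the high-fat diet and -0.30 on chow, KO against flox. These values of Ttr and Stra6l are as deposited, and both rescalings make the negative changes on the high-fat diet smaller. The classical Rbp4 receptor gene Stra6 was listed at 0 in both flox groups and under 0.01 RPKM in both KO groups.

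Among the 4 genes of the carrier list that reached 1 RPKM and are reported, Fabp5 was the 1 past the threshold in any of the 4 comparisons. Fabp5, a fatty acid-binding protein that also binds retinoic acid, was at 14.7 RPKM in KO and 6.94 RPKM in flox livers on the high-fat diet and at 16.7 RPKM in KO and 15.95 RPKM in flox livers on chow. Flox high fat stood apart as the low group: Fabp5 fell with the diet in flox livers (log2 change -1.09, and -0.97 with totals set without the 50 most abundant genes), with -0.17 in KO livers. Its KO change on the high-fat diet was 0.98, or 1.25 and 1.27 rescaled, past the threshold.

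Lrat (chromosome 3, 82892582 to 82903974), the enzyme that makes retinyl esters and a marker of stellate cells, was at 5.46 RPKM in KO and 3.99 RPKM in flox livers on the high-fat diet, and at 3.20 RPKM in KO and 3.65 RPKM in flox livers on chow. KO high fat was the highest group. The log2 change of KO against flox was 0.37 on the high-fat diet and -0.15 on chow, and that of the high-fat diet against chow was 0.62 in KO and 0.10 in flox livers, none past the threshold. Most of the other stellate cell markers were also higher in KO livers on the high-fat diet. The 14 stellate markers summed to 181 RPKM in KO and 125 RPKM in flox livers on the high-fat diet, and to 154 RPKM in KO and 128 RPKM in flox livers on chow. They were higher in KO livers in 12 of 14 on the high-fat diet and in 13 of 14 on chow, with 0 of the 12 compared past the threshold, and none was listed at 0. The share of all genes higher in KO livers was not counted. The median log2 change of the 12 was 0.38 on the high-fat diet, where all genes had -0.13, and 0.14 on chow, where all genes had -0.02. Some differences were small (Angptl6 on chow, 6.68 RPKM in KO and 6.67 RPKM in flox livers). Gfap (0.157 RPKM or less) and Nes (0.404 RPKM or less) were near the floor. Dcn alone made up 130 RPKM of the KO sum and 80.0 RPKM of the flox sum on the high-fat diet. The 7 markers of activated stellate cells summed to 26.6 RPKM in KO and 11.1 RPKM in flox livers on the high-fat diet, and to 13.1 RPKM in KO and 8.82 RPKM in flox livers on chow. Most of the KO sum on the high-fat diet was Col3a1 (11.3 RPKM), Col1a2 (5.41 RPKM) and Col1a1 (4.78 RPKM). Acta2 was at 0.965 RPKM in KO and 0.863 RPKM in flox livers on the high-fat diet, and at 0.868 and 0.898 RPKM on chow. Timp1 (0.698 RPKM or less) and Lox (0.148 RPKM or less) were near the floor. The 8 cholangiocyte markers summed to 118 RPKM in KO and 25.0 RPKM in flox livers on the high-fat diet, most of it Spp1 (103 and 20.6 RPKM), and to 46.3 RPKM in KO and 23.6 RPKM in flox livers on chow. The part of these cells in the level of Lrat was not tested.

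**Figure D4:**
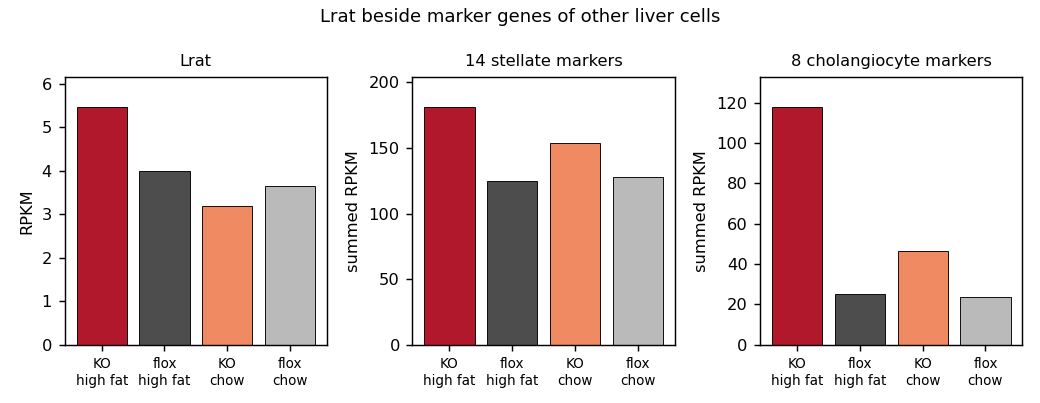
RPKM of Lrat, and summed RPKM of the 14 stellate cell markers and the 8 cholangiocyte markers (y axes, from 0), in KO high fat, flox high fat, KO chow and flox chow livers (x axis), 1 deposited value per gene and group. Both marker sums are higher in KO than in flox livers on each diet, while Lrat is higher in KO livers on the high-fat diet and lower on chow.

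The other genes of retinyl ester and carotenoid handling stayed under the threshold in all 4 comparisons. Of the 10 genes on that list, 9 reached 1 RPKM, and Retsat was the 1 that fell, on both diets, KO against flox. Scarb1, a receptor for lipoproteins that also takes up carotenoids, was at 45.3 RPKM in KO and 87.7 RPKM in flox livers on the high-fat diet (log2 change -0.94) and at 43.4 RPKM in KO and 61.0 RPKM in flox livers on chow (log2 change -0.48). Both rescalings make its negative change on the high-fat diet smaller. The carotenoid-cleaving enzyme genes were low, with Bco2 at 6.01 RPKM in KO and 9.58 RPKM in flox livers on the high-fat diet and Bco1 between 1.78 and 2.42 RPKM in all groups.

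Among the enzymes that interconvert retinol and retinal, the 3 members kept their order (Rdh7, Dhrs3, Rdh10) in all groups. Dhrs3 (chromosome 4, 144892534 to 144928209), which reduces retinal back to retinol, was at 64.8 RPKM in KO and 69.9 RPKM in flox livers on the high-fat diet, and at 83.7 RPKM in KO and 91.7 RPKM in flox livers on chow. Both high-fat values lay below both chow values, with log2 changes of the diet of -0.36 in KO and -0.39 in flox livers, and -0.08 and -0.30 with the median log2 ratio of the genes of at least 10 RPKM brought to 0. The KO changes were -0.11 on the high-fat diet and -0.13 on chow, the first of which turned positive under both rescalings (0.18 and 0.20) and the second with totals set without the 50 most abundant genes (0.02). Rdh10 (chromosome 1, 16105882 to 16132550), which oxidises retinol to retinal, was the steadiest member, at 8.78 RPKM in KO and 9.13 RPKM in flox livers on the high-fat diet and at 8.82 RPKM in KO and 9.15 RPKM in flox livers on chow. Its highest value was 1.04 times its lowest as deposited. Its small negative changes all turned positive under both rescalings, up to 0.26 for high fat against chow in KO livers.

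Rdh7 (chromosome 10, 127884027 to 127889247), a retinol and sterol dehydrogenase of rodent liver, was at 280 RPKM in KO and 492 RPKM in flox livers on the high-fat diet, and at 402 RPKM in KO and 486 RPKM in flox livers on chow. KO high fat was the low group, at 56.9% of flox (log2 change -0.81, or -0.52 and -0.51 rescaled), while KO chow was at 82.7% of flox (log2 change -0.27). Rdh7 lies in a cluster of similar genes, and 13.2% of the 50-base words of its transcript occur in transcripts of 8 related genes (Rdh18-ps, Rdh1, Rdh16f1, Rdh19, Hsd17b6, Rdh9, Rdh16f2 and Rdh16, in order of the words shared), so a part of its reads may be assigned differently. Rdh1 and Rdh19 stayed under 0.1 RPKM and Rdh18-ps between 0.166 and 0.307 RPKM in all groups, and Rdh16f1 and Rdh16f2 were not matched to a symbol. Rdh9 was at 20.7 RPKM in KO and 24.8 RPKM in flox livers on the high-fat diet and Rdh16 at 16.8 RPKM in KO and 18.7 RPKM in flox livers, with log2 changes of -0.25 and -0.14.

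Of the 22 oxidoreductases on the list, 21 had a row and 14 reached 1 RPKM. None passed the threshold in KO against flox on either diet, where 1.62% of all genes on chow and 2.93% on the high-fat diet did. Adh1, an alcohol dehydrogenase that also oxidises retinol, was the most abundant, at 1748 RPKM in KO and 1789 RPKM in flox livers on the high-fat diet and at 1941 RPKM in KO and 2179 RPKM in flox livers on chow. Rdh11, an NADP-dependent retinal reductase, fell with the diet in flox livers. It was at 11.9 RPKM in KO and 6.43 RPKM in flox livers on the high-fat diet, and at 14.4 RPKM in KO and 21.1 RPKM in flox livers on chow. Flox chow was the highest group and flox high fat the lowest, with KO between them on both diets. The diet change was -0.26 in KO and -1.57 in flox livers on the log2 scale, and the KO change was 0.80 on the high-fat diet (1.06 and 1.08 rescaled, past the threshold) and -0.52 on chow. The difference of these changes was 1.32, where 0.659% of 10319 genes had a difference of at least 1 and 0.572% one of -1 or less.

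Aldh1a1 (chromosome 19, 20492583 to 20643463), which oxidises retinal to retinoic acid, was the second most abundant member. It was at 647 RPKM in KO and 565 RPKM in flox livers on the high-fat diet, and at 732 RPKM in KO and 621 RPKM in flox livers on chow. As deposited, it was the 1 member above flox in KO livers on chow (log2 change 0.24) and was above it on the high-fat diet as well (0.20, or 0.49 and 0.50 rescaled), under the threshold each time. Its close copy Aldh1a7, with which it shares 6.54% of its 50-base words, was at 83.8 RPKM in KO and 82.9 RPKM in flox livers on the high-fat diet and at 94.3 RPKM in KO and 104 RPKM in flox livers on chow. The other retinal dehydrogenases Aldh1a2 and Aldh1a3 stayed under 0.2 RPKM in all groups. Aldh8a1, known to oxidise 9-cis-retinal, was at 76.3 RPKM in KO and 123 RPKM in flox livers on the high-fat diet (log2 change -0.68 as deposited, smaller under both rescalings). Aox3, an aldehyde oxidase of rodent liver, fell with the high-fat diet in KO livers, at 77.5 RPKM in KO high fat and 160 RPKM in KO chow (log2 change -1.04), against 118 RPKM in flox high fat and 122 RPKM in flox chow (log2 change -0.04). The fall in KO livers was -0.75 under both rescalings, short of the threshold.

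Cyp26a1 (chromosome 19, 37697738 to 37701536), the hydroxylase that starts the breakdown of retinoic acid and whose transcription retinoic acid induces, carried the difference between diets. It was at 7.99 RPKM in KO and 4.03 RPKM in flox livers on the high-fat diet, and at 18.3 RPKM in KO and 19.6 RPKM in flox livers on chow. Both high-fat values lay below both chow values, and the KO value lay above the flox value on the high-fat diet only. High fat against chow, the level was 43.6% in KO livers (log2 change -1.10) and 20.6% in flox livers (log2 change -2.03). The fall in flox livers had rank 11 among 10322 genes and that in KO livers rank 64 among 10328. The fall in flox livers stayed past the threshold under both rescalings (-1.94 and -1.90), while that in KO livers became -0.84 under each. KO against flox, the log2 change was 0.84 on the high-fat diet, or 1.09 and 1.11 rescaled, which passes the threshold, and -0.09 on chow, or -0.01 and 0.05 rescaled. The difference of the KO changes was 0.93 as deposited and between 1.06 and 1.10 with a pseudocount of 0.1 RPKM and under the rescalings.

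**Figure D5:**
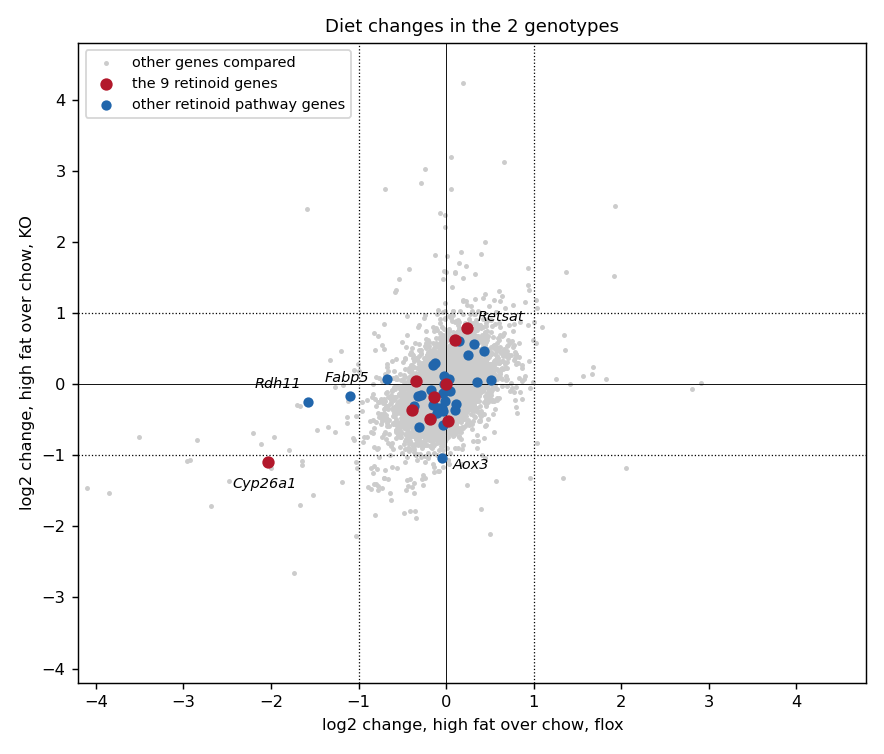
Log2 change of high fat over chow in flox livers (x axis) and in KO livers (y axis) for the 9 retinoid genes (red), the other retinoid pathway genes that passed 1 RPKM (blue) and other genes (grey), with dotted lines at the threshold of 1. Cyp26a1 (-2.03 and -1.10) is past it in both genotypes, Rdh11 (-1.57 and -0.26) and Fabp5 (-1.09 and -0.17) in flox livers, and Aox3 (-0.04 and -1.04) in KO livers.

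The genes whose pattern over the 4 groups was most like that of Cyp26a1, among 9870 other genes with a mean of at least 1 RPKM and no 0, were Aldoc, Hmgcs1, Mvd, Mvk and an entry that joins Raet1a to Raet1e, with distances from 0.37 to 0.49. Hmgcs1, Mvd and Mvk encode enzymes of the mevalonate pathway. Hmgcs1 was at 44.2 RPKM in KO and 26.2 RPKM in flox livers on the high-fat diet and at 116 RPKM in KO and 150 RPKM in flox livers on chow. Mvk was at 5.93 RPKM in KO and 4.62 RPKM in flox livers on the high-fat diet and at 14.7 RPKM in KO and 21.4 RPKM in flox livers on chow. Aldoc, an aldolase gene, was at 3.78 RPKM in KO and 2.37 RPKM in flox livers on the high-fat diet and at 8.07 RPKM in KO and 10.7 RPKM in flox livers on chow. The diet change of Aldoc, Hmgcs1, Mvd and Mvk was more negative in flox than in KO livers, as in Cyp26a1, and the joined Raet1 entry had -1.69 in KO and -1.67 in flox livers. Their likeness to Cyp26a1 over the same 4 values is how these genes were chosen, so a shared diet pattern follows from the choice.

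The other enzymes of retinoic acid breakdown were low. Cyp26b1 was at 2.35 RPKM in KO and 1.61 RPKM in flox livers on the high-fat diet and at 2.18 RPKM in KO and 3.16 RPKM in flox livers on chow, with a diet change of 0.08 in KO and -0.67 in flox livers. Cyp2c39, known as a retinoic acid hydroxylase of mouse liver, was at 1.75 RPKM in KO and 0.909 RPKM in flox livers on the high-fat diet and at 0.801 RPKM in KO and 0.725 RPKM in flox livers on chow. Cyp26c1 stayed under 0.1 RPKM.

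Rarb (chromosome 14, 16430839 to 17082331), a retinoic acid receptor gene that retinoic acid itself induces, was the lowest member. It was at 1.59 RPKM in KO and 1.17 RPKM in flox livers on the high-fat diet, and at 1.52 RPKM in KO and 1.77 RPKM in flox livers on chow. Flox high fat was the lowest group and flox chow the highest, as in Rdh11, at a much lower level. The diet change was 0.04 in KO and -0.35 in flox livers on the log2 scale, under the threshold, and a pseudocount of 1 RPKM understates changes at this level (0.06 and -0.55 with a pseudocount of 0.1 RPKM). Its value is uncertain, because 54.1% of the 50-base words of its longest transcript occur on the opposite strand in transcripts of Top2b, and it is not given whether reads were counted by strand. Top2b was at 6.06 RPKM in KO and 6.62 RPKM in flox livers on the high-fat diet and at 5.93 RPKM in KO and 5.95 RPKM in flox livers on chow.

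All 6 receptor genes of the RAR and RXR families reached 1 RPKM, and 0 of them passed the threshold in any of the 4 comparisons. Rxra was the most abundant, at 59.6 RPKM in KO and 80.7 RPKM in flox livers on the high-fat diet (log2 change -0.43) and at 72.5 RPKM in KO and 74.3 RPKM in flox livers on chow (log2 change -0.03). Both rescalings make the negative change of Rxra on the high-fat diet smaller. Rara was at 4.79 RPKM in KO and 6.94 RPKM in flox livers on the high-fat diet and at 4.66 RPKM in KO and 5.20 RPKM in flox livers on chow. Of the 11 reported genes known to respond to retinoic acid, a list that holds Cyp26a1, Rarb, Dhrs3 and Lrat, 7 reached 1 RPKM. KO against flox, 0 of these 7 passed the threshold on either diet as deposited, and under both rescalings 1 (Cyp26a1) rose on the high-fat diet. In flox livers 1 of the 7, Cyp26a1, fell with the diet, and their median log2 change was -0.35, where all genes had -0.01. That median is the value of Rarb, which is uncertain. Cyp26b1 (-0.67) and Dhrs3 (-0.39) were negative as well, while Lrat (0.10), Tgm2 (0.04) and Nrip1 (0.43) were positive. In KO livers 1 of the 7, again Cyp26a1, fell (0 under both rescalings), and the median was 0.08, where all genes had -0.11. Tgm2, a transglutaminase gene that retinoic acid induces, was at 27.8 RPKM in KO and 23.5 RPKM in flox livers on the high-fat diet and at 26.3 RPKM in KO and 23.0 RPKM in flox livers on chow. Nrip1, a corepressor gene, was at 1.20 RPKM in KO and 1.12 RPKM in flox livers on the high-fat diet and at 0.587 RPKM in KO and 0.577 RPKM in flox livers on chow.

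Over the whole pathway, 62 of the 63 reported genes had a row and 43 were compared. KO against flox, 0 rose and 1 (Retsat) fell on chow, and 0 rose and 1 (Retsat) fell on the high-fat diet. Of all genes, 0.252% rose and 1.37% fell on chow, and 1.07% rose and 1.86% fell on the high-fat diet. Under both rescalings 3 (Fabp5, Rdh11 and Cyp26a1) rose on the high-fat diet, and with a pseudocount of 0.1 RPKM 1 (Fabp5) did. Of all 10327 genes, 185 or 192 rose there rescaled and 231 with that pseudocount. High fat against chow, 2 fell in KO livers (Cyp26a1 and Aox3) and 3 fell in flox livers (Cyp26a1, Rdh11 and Fabp5), with 0 rising in either. Of all genes, 0.794% fell and 0.668% rose in KO livers, and 0.426% fell and 0.213% rose in flox livers. Under both rescalings 0 fell and 1 (Retsat) rose in KO livers, and with a pseudocount of 0.1 RPKM 1 (Cyp2c39) rose there beside the 2 that fell. Of all 10328 genes, 131 or 133 rose and 47 fell rescaled, and 189 rose and 116 fell with that pseudocount. The median log2 change of the 43, KO against flox, was -0.13 on chow, where all genes had -0.02, and -0.14 on the high-fat diet, where all genes had -0.13. The 9 markers of sinusoidal endothelial cells summed to 99.5 RPKM in KO and 102 RPKM in flox livers on the high-fat diet, and to 101 RPKM in KO and 109 RPKM in flox livers on chow. The 10 macrophage markers summed to 332 RPKM in KO and 238 RPKM in flox livers on the high-fat diet, and to 199 RPKM in KO and 206 RPKM in flox livers on chow. The 7 adipocyte markers summed to 11.9 RPKM in KO and 25.1 RPKM in flox livers on the high-fat diet, and to 11.3 RPKM in KO and 12.6 RPKM in flox livers on chow. Flox high fat stood apart through Cfd (9.76 RPKM, and 0.533 RPKM or less in the other groups) and Cidec (3.74 RPKM, and 1.44 RPKM or less), which both rose with the diet in flox livers. Of the other adipocyte markers, Fabp4 lay between 9.59 and 11.5 RPKM in all groups, Adipoq, Retn and Plin1 stayed under 0.1 RPKM, and Lep was listed at 0. The part of such cells in the low values of Cyp26a1, Rdh11 and Fabp5 in flox livers on the high-fat diet was not tested.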

How the data were processed

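Liver RNA of 4 groups was analysed. The deposited values are RPKM, per the file headers, with 1 value per gene and group. The submitters' processing notes name TopHat2 2.0.7, Cuffdiff 2.1.1 and mm10 without saying what each was for. Neither the annotation nor how the 2 libraries of each group became 1 value is given in the sources used here. Files were matched to groups by the part of their names that the sample titles carry. The 23179 rows were summed to 22923 symbols, and each member had 1 row. Low values multiplied by transcript length were within 0.05 of a whole step in 15.9% to 19.2% of cases, too few to recover reads, so depth is unknown.

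A gene was kept where any group reached 1 RPKM (10351 genes), and was not compared with a group that lists it at 0. The log2 change used a pseudocount of 1 RPKM and was called past an absolute value of 1. No test was possible. The members, lists and rules were chosen with earlier results of these data known. After the values were seen, 1 listed gene was left out of the lists and their counts, and it is not reported here. By rule, the text names the members, Xbp1, near copies of members, listed genes past the threshold and the 5 genes nearest in pattern to Retsat and to Cyp26a1. Other listed genes, the neighbours of Retsat and Top2b were chosen after their values were seen. The code that makes the calls was run on simulated data with planted changes larger than the threshold, little noise and no difference in scaling between groups. That checks the code and not the calls in these data. Older symbols were matched through RefSeq synonyms. Coordinates and promoters came from RefSeq on GRCm38.p6, shared 50-base words from GENCODE transcripts on the same assembly. Versions were Python 3.11.15, pandas 2.3.3, numpy 2.4.6 and, for figures, matplotlib 3.10.9.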

Additional observations from a re-analysis of the deposited data

How the results depend on the processing

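The 5 alternatives were a pseudocount of 0.1 RPKM, no filter, zeros kept at 0, rescaling to a median log2 ratio of 0 over genes of at least 10 RPKM in all groups (which leaves the median of all genes compared between 0.05 and 0.12), and rescaling without the 50 genes of highest mean. No paired analysis was possible because the files hold 1 value per group. For the same reason no library could be left out. Under both rescalings 1 member (Cyp26a1) rose in KO against flox on the high-fat diet, and with the diet in KO livers 1 member (Retsat) rose and 0 fell. With a pseudocount of 0.1 and both rescalings 1 member (Cyp26a1) rose in the difference of the KO changes. The other 41 of 50 counts of members, each 0 or 1, were equal to the reported count. Many of these could not differ. All 9 members passed the filter and none was listed at 0, so no filter and zeros kept at 0 could not change a count of members. No filter cannot add a call with a pseudocount of 1 RPKM, and it left every count of all genes as it was. With a pseudocount of 0.1 RPKM, 81 in place of 26 genes rose in KO against flox on chow, 231 in place of 111 on the high-fat diet, 189 in place of 69 with the diet in KO and 61 in place of 22 in flox livers. The difference of the KO changes had 68 genes rising and 59 falling, against 143 and 97 with a pseudocount of 0.1 RPKM, and 112 and 30 or 105 and 35 rescaled. Depth is unknown, so the counting error behind each value is unknown too.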
